A study of Mus musculus with 34 samples.

Results

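Plekha2, Kcnmb1, Gprc5c and Asphd2 are 4 of the 21647 genes counted by bulk RNA sequencing of cultured mouse ependymal cells, in 34 samples. None of the 4 encodes a known part of the axoneme, the microtubule core of a motile cilium. They were chosen by their measured response: among genes that changed in the same direction in Rfx2 knockouts and in Rfx3 knockouts, they were among those with the smallest p-values. In those lines the differences of the 4 genes are therefore a description, with no test. The Rfx1 line took no part in the choice, so a test is given there.

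The samples fell into 6 groups from 3 mouse lines. Rfx1-/- cells (n = 4) were set against wild-type siblings (n = 4), Rfx2-/- cells (n = 6) against wild-type siblings (n = 8), and Rfx3-/- cells (n = 6) against wild-type siblings (n = 6). All came from the walls of the lateral ventricles of embryos at E18.5, were grown to confluency and were then kept 4 days without serum to induce differentiation. The labels give the strain as C57BL/6, although every title also holds the unexplained term OF1. They do not say which part of a gene was deleted, nor whether replicates came from separate embryos or cultures. P-values therefore measure only the spread between these samples, which may be technical.

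Ependymal cells line the brain ventricles and carry tufts of motile cilia. RFX proteins are winged-helix transcription factors that bind a motif called the X-box, an inverted repeat of a pair of half-sites, in the promoters of many ciliary genes. Whether RFX proteins bind at the 4 genes was not measured here. Plekha2 (also called TAPP2) is an adaptor whose pleckstrin homology domain binds the membrane lipid PI(3,4)P2. Kcnmb1 is the beta1 subunit of the BK channel, a potassium channel opened by calcium and voltage. It raises the channel's calcium sensitivity and is best known from smooth muscle. Gprc5c (RAIG3) is an orphan receptor of the retinoic acid-inducible branch of class C G protein-coupled receptors. Asphd2 is named for the aspartate beta-hydroxylase domain that it shares with Asph.

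In the table of RefSeq promoters used here (GRCm38.p6, 250 bases before to 50 bases after each start), 2 of the 4 genes were matched, Kcnmb1 and Asphd2, and Asphd2 had 2 starts. Plekha2 and Gprc5c had no entry in that table. These windows were searched on both strands for an X-box, taken as GTNNCC and GGNNAC 0 to 3 bases apart, and for the single half-site GTTGCC or its reverse complement GGCAAC. The sequences are shown because the lines differ in X-box-binding factors. The first line below gives the single match, at Kcnmb1, with both half-sites and the bases between them in capitals. It lies at chr11:33963038-33963051 on the + strand, in the untranslated part of the first exon, with its first base 26 bases from the start. The other lines are the bases before the starts that lie outside annotated exons, and the windows before the starts held no match.
Kcnmb1, match: gacatctGTTTCCCAGGAGACtctggga
Kcnmb1, chr11:33962763-33963012, + strand: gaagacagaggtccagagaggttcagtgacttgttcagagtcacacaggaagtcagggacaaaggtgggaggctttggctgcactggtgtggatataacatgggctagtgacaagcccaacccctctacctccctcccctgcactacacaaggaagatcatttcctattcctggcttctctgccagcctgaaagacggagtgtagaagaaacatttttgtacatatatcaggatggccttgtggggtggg
Asphd2, chr5:112395371-112395620, - strand: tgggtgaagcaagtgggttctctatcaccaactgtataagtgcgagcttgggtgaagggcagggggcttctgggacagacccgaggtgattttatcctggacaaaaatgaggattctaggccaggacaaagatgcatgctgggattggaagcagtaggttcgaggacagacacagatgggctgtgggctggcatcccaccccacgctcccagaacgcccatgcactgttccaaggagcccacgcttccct
Asphd2, chr5:112394867-112395023, - strand: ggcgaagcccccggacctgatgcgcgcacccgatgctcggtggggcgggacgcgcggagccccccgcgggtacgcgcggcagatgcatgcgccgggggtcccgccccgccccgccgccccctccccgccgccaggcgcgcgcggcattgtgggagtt

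The X-box pattern occurred in 3.86% of 32851 RefSeq promoters over the whole window and in 3.21% before the start. The half-site occurred in 12.5% and 10.4%. The half-site was found in neither gene. G and C made up 50.8% of the Kcnmb1 stretch and 55.6% and 80.9% of the Asphd2 stretches, the last being the one before the downstream start. A match is a description of letters, and binding was not measured.

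Before the values, some facts of the whole data set bear on them. Total counts ran from 18.2 to 53.4 M per library. The knockouts held less mRNA of the targeted gene than their wild types in all 3 lines, with log2 differences of -1.4 (Rfx1), -1.13 (Rfx2) and -2.14 (Rfx3), and Rfx1 missed the threshold over all genes (adjusted p = 0.0687). A gene was called when its adjusted p in edgeR was below 0.05. The Rfx3 knockouts also held less Rfx2 (log2 difference -0.56, adjusted p = 0.00861) and Rfx1 mRNA (-0.45, adjusted p = 0.0111), and both were called. Neither call remained in replicates 1 to 3 alone (adjusted p = 0.24 and 0.208). In the Rfx2 line Rfx3 mRNA averaged 189.0 ± 15.1 CPM (SD, n = 6) in knockouts and 193.3 ± 25.5 (n = 8) in wild types. In the Rfx2 line 13.9% of 14305 genes tested were called higher and 18.4% lower. In the Rfx3 line 10.6% of 14340 were called higher and 12.9% lower. Rfx3_KO replicate 3 stood apart: without it 5549 genes were called in the Rfx3 line, against 3374 with it. The markers of the labelled cell type were present, with Foxj1, the master regulator of motile cilia, at 642.9 to 2004 CPM over the 34 samples. Markers of other cell types were present as well. Summed astrocyte markers had medians of 4124 CPM in Rfx3 knockouts and 2365 in their wild types, with overlapping ranges. Of 8 astrocyte markers, 3 were called higher and 0 lower in the Rfx3 line, and 3 and 1 in the Rfx2 line. Microglial sums had medians of 1126 and 749 CPM in Rfx2 knockouts and wild types, and 0 of 8 were called. Of 3 choroid plexus markers tested in the Rfx3 line, 3 were called lower. Summed choroid plexus markers had medians of 33.4 CPM in Rfx3 knockouts and 72.7 in their wild types, with overlapping ranges. Of 8 oligodendrocyte lineage markers, 2 were called higher and 0 lower in the Rfx3 line, and 1 and 1 in the Rfx2 line. None of these Rfx3 calls held in replicates 1 to 3 alone. The part of these cells in the differences of Plekha2, Kcnmb1, Gprc5c and Asphd2 was not tested.

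Levels are given as CPM, read counts scaled to library size, with TMM factors over all libraries. Plekha2 (ENSMUSG00000031557, GRCm38 chr8:25039144-25102376, - strand) was lower in both the Rfx2 and the Rfx3 knockouts. In Rfx2 knockouts it ran from 94.3 to 108.4 CPM with a median of 102.3, and in their wild types from 128.1 to 180.7 with a median of 161.4. In Rfx3 knockouts it ran from 72.5 to 93.8 CPM with a median of 89.4, and in their wild types from 141.4 to 187.7 with a median of 169.1. Knockouts and wild types did not overlap in either line, as for 10.7% and 15.7% of all genes tested in the Rfx2 and Rfx3 lines. The log2 difference was -0.67 (SE 0.07) in the Rfx2 line and -0.94 (SE 0.09) in the Rfx3 line. In Rfx1 knockouts the samples stood at 175.8, 150.5, 210.7 and 157.02 CPM, and in their wild types at 148.4, 151.4, 143.03 and 182.6. These groups overlapped, and the log2 difference was 0.15 (SE 0.12).

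Ordered by mean, Plekha2 was lowest in Rfx3 knockouts (86.3 ± 8.69 CPM, SD, n = 6), then in Rfx2 knockouts (101.7 ± 4.96, n = 6). The highest Rfx3 knockout stood just below the lowest Rfx2 knockout. The 3 wild-type groups and the Rfx1 knockouts followed with means from 156.3 to 173.5 CPM, and their ranges overlapped. About 23.8% of the 50-base words of Plekha2 transcripts also occur in transcripts of the genes that overlap it. Those genes, Gm16933 and 5830408C22Rik, are noncoding, lie on the opposite strand and share 959 and 521 exon bases with Plekha2. Neither is in the count table. Since the use of strand is not given in the sources used here, reads from that stretch cannot be told apart.

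Kcnmb1 (ENSMUSG00000020155, chr11:33963013-33973641, + strand) lay furthest below its wild types in the Rfx3 line among the 4. In Rfx2 knockouts it ran from 1.08 to 2.91 CPM with a median of 2.52, which rested on 29 to 93 reads per library. Their wild types ran from 5.54 to 13.02 CPM with a median of 8.69. In Rfx3 knockouts it ran from 1.52 to 3.87 CPM with a median of 2.55, and in their wild types from 8.58 to 13.2 with a median of 10.6. Every knockout lay below every wild type in both lines. The log2 differences were nearly the same size, -2.06 (SE 0.24) in the Rfx2 line and -2.12 (SE 0.21) in the Rfx3 line. In Rfx1 knockouts Kcnmb1 stood at 9.71, 12.3, 6.02 and 3.37 CPM, and in their wild types at 16.6, 14.7, 16.4 and 6.26. The ranges overlapped through the single low wild type, and the log2 difference was -0.77 (SE 0.42). That library, Rfx1_WT replicate 4, had a total of 50.9 M counts, while the others of the Rfx1 line had 18.2 to 22.5 M. It also had the highest Plekha2 and Gprc5c and the lowest Asphd2 of the Rfx1 wild types.

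The order of means for Kcnmb1 was Rfx2 knockouts (2.26 ± 0.73 CPM, SD, n = 6), Rfx3 knockouts (2.55 ± 0.82, n = 6), Rfx1 knockouts (7.86 ± 3.96, n = 4) and then the wild types of the Rfx2 (9.31 ± 2.47, n = 8), Rfx3 (10.97 ± 1.81, n = 6) and Rfx1 lines (13.5 ± 4.89, n = 4). Every pair of neighbours in that order overlapped in range. The Rfx1 knockouts overlapped with the Rfx3 knockouts only through the library at 3.37 CPM. Kcnmb1 lies inside Kcnip1, a gene on the opposite strand with which it shares no exon base. Kcnip1 differed by -0.04 (adjusted p = 0.937) in the Rfx2 line and 0.50 (adjusted p = 0.395) in the Rfx3 line on the log2 scale, and was not called.

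Gprc5c (ENSMUSG00000051043, chr11:114851152-114872617, + strand) had its lowest values in Rfx2 knockouts. They ran from 2.58 to 4.08 CPM with a median of 2.82, and 5 of the 6 lay between 2.58 and 2.90. Their wild types ran from 7.17 to 20.7 CPM with a median of 14.1. In Rfx3 knockouts Gprc5c ran from 4.0 to 6.58 CPM with a median of 5.16, and in their wild types from 12.2 to 24.4 with a median of 15.3. Again no knockout reached the lowest wild type of its line. The log2 difference was -2.27 (SE 0.22) in the Rfx2 line and -1.65 (SE 0.19) in the Rfx3 line. In Rfx1 knockouts Gprc5c stood at 12.6, 13.1, 28.3 and 9.88 CPM, and in their wild types at 18.2, 14.01, 16.7 and 29.6. The ranges overlapped almost fully, and the log2 difference was -0.30 (SE 0.34). Without Rfx1_KO replicate 3, the sample at 28.3 CPM, it was -0.74, and without Rfx1_WT replicate 4, the sample at 29.6, it was -0.02.

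The means of Gprc5c ran from 3.0 ± 0.54 CPM (SD, n = 6) in Rfx2 knockouts to 5.27 ± 1.09 (n = 6) in Rfx3 knockouts. These groups overlapped only because the highest Rfx2 knockout, at 4.08, passed the lowest Rfx3 knockout. The other 4 groups had means between 14.2 and 19.6 CPM and overlapped in range. Its spread between wild types was wide, with a coefficient of variation of 27.9% to 35.1%, against 10.2% to 11.4% for Plekha2.

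Asphd2 (ENSMUSG00000029348, chr5:112384354-112394866, - strand) moved the other way. In Rfx2 knockouts it ran from 66.5 to 83.9 CPM with a median of 74.1, and in their wild types from 37.9 to 56.4 with a median of 43.5. In Rfx3 knockouts it ran from 60.8 to 82.3 CPM with a median of 63.2, and in their wild types from 37.5 to 43.3 with a median of 39.1. Every knockout lay above every wild type in both lines. The log2 differences were 0.71 (SE 0.08) in the Rfx2 line and 0.74 (SE 0.07) in the Rfx3 line. Within the Rfx2 knockouts, replicates 1 to 3 stood at 66.5, 67.5 and 68.0 CPM and replicates 4 to 6 at 80.3, 83.9 and 81.8.

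In the Rfx1 line the same direction was seen for Asphd2 with a smaller size. The knockouts stood at 54.7, 61.3, 47.3 and 47.6 CPM, and the wild types at 42.2, 45.5, 43.7 and 37.1. All 4 knockouts lay above all 4 wild types, and the log2 difference was 0.33 (SE 0.10). Groups without overlap made up 1.5% of all genes tested in the Rfx1 line. The means over the 6 groups ran from 39.7 ± 2.25 CPM (SD, n = 6) in the Rfx3 wild types through 42.1 ± 3.59 (n = 4) and 44.99 ± 5.78 (n = 8) in the other wild types to 52.7 ± 6.66 (n = 4), 66.9 ± 8.08 (n = 6) and 74.7 ± 8.15 (n = 6) in Rfx1, Rfx3 and Rfx2 knockouts. All neighbours in this order overlapped in range, the Rfx1 and Rfx3 knockouts only through the Rfx1 sample at 61.3.

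**Figure D1:**
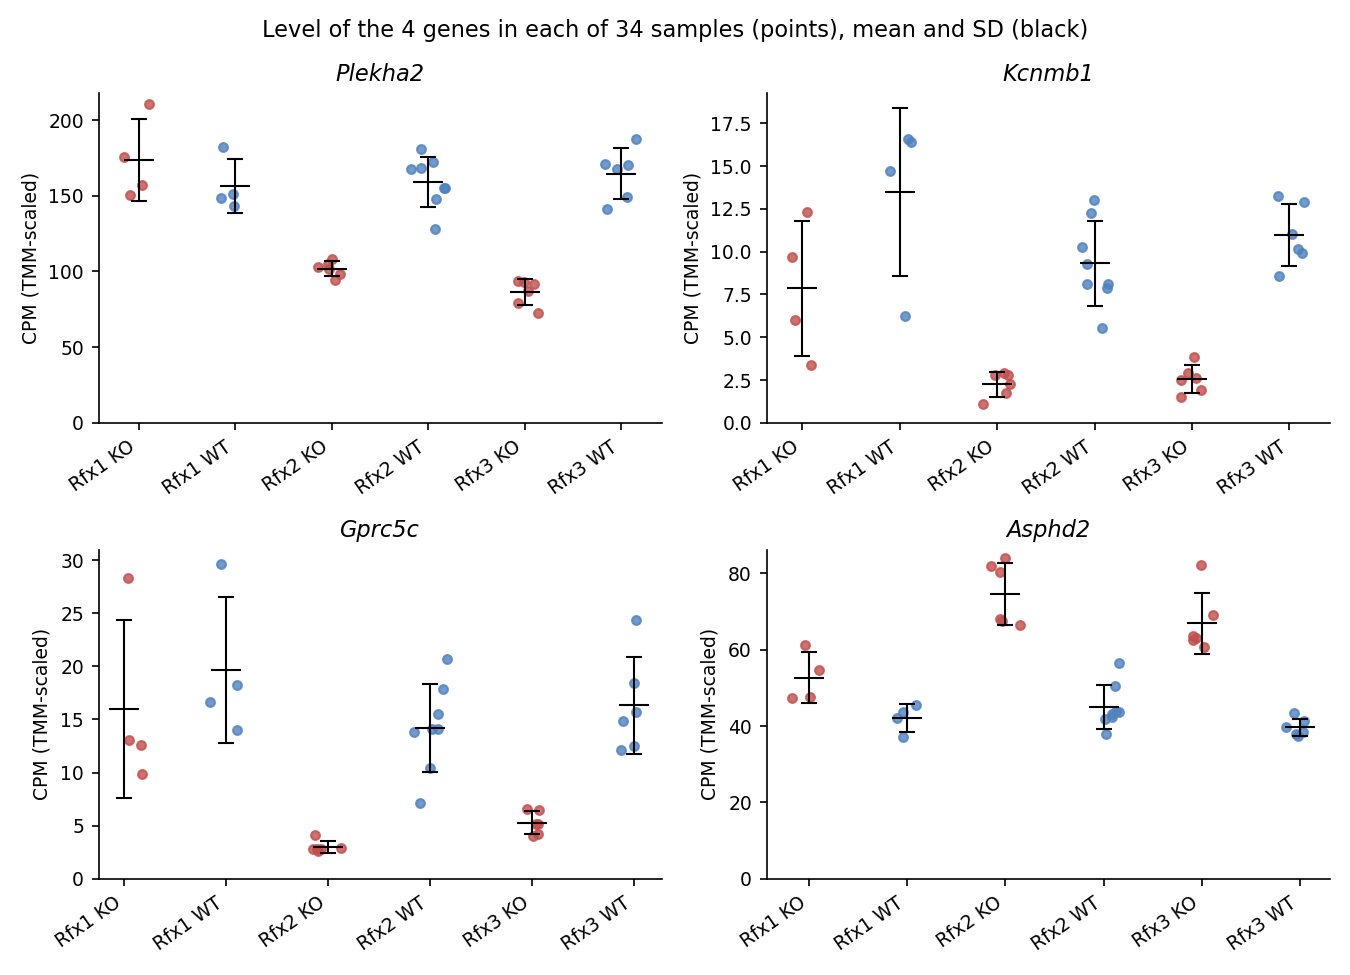
Level of each gene in CPM (linear axis from 0) in every sample, by group, with points for samples and black bars for the mean and SD. Plekha2, Kcnmb1 and Gprc5c sit below their wild types and Asphd2 above them in the Rfx2 and Rfx3 lines, with no overlap. In the Rfx1 line only Asphd2 shows no overlap. The genes shown were chosen on the Rfx2 and Rfx3 samples, so the gaps there are a description. Groups without overlap made up 1.5%, 10.7% and 15.7% of all genes tested in the Rfx1, Rfx2 and Rfx3 lines.

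The test that the choice of genes did not use gave no call. In the Rfx1 line the adjusted p in edgeR was 0.9998 for each of the 4 genes, and over 13 alternative settings it was 0.969 or higher. With DESeq2 0 of the 4 were called. At an unadjusted p under 0.05 in the main edgeR fit, 1 of the 4 passed (Asphd2). Kcnmb1 had 0.0975 there. Its unadjusted p in edgeR was 0.00581 with the replicate number as a block and 0.0245 with all groups in 1 fit. It was 0.0228 without Rfx1_WT replicate 4 and 0.0343 without Rfx1_KO replicate 2, and above 0.05 in the other alternatives. Gprc5c had 0.0184 without Rfx1_KO replicate 3. Over all 13830 genes tested in that line, 1 gene was called (0.00723%) and 2.03% had an unadjusted p under 0.05. The groups of Asphd2 did not overlap, which held for 1.5% of all genes tested in the Rfx1 line. In the Rfx2 and Rfx3 lines groups without overlap made up 10.7% and 15.7% of all genes tested, and there all 4 genes were in that state by their selection on these samples. Whether the response in the Rfx1 line differed from that in the other lines was not tested, since those contrasts chose the genes.

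**Figure D2:**
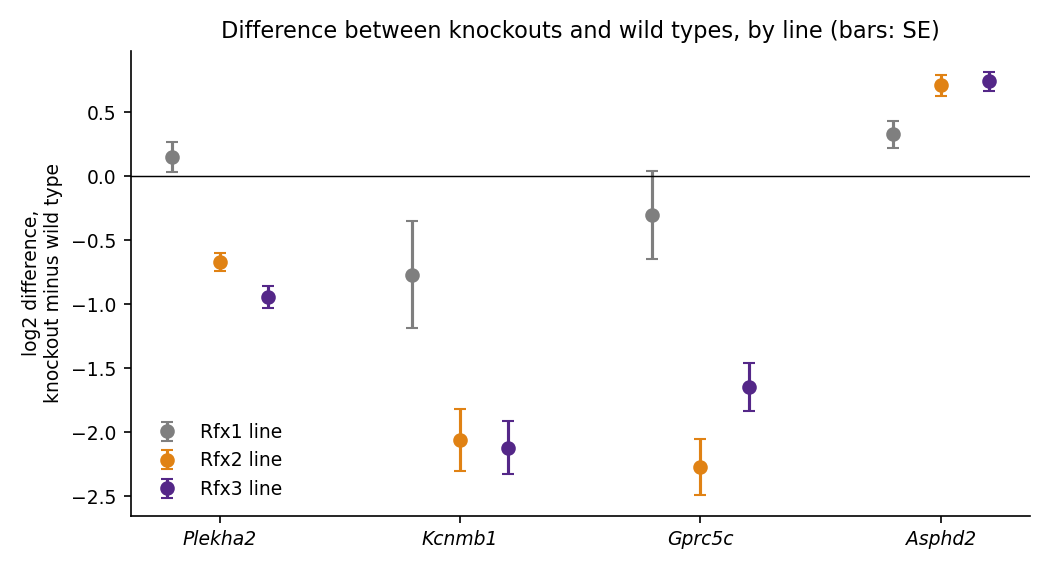
Log2 difference between knockouts and wild types for each gene (vertical axis) in the Rfx1, Rfx2 and Rfx3 lines, with the SE as bars. Kcnmb1 is near -2.06 and -2.12 in the Rfx2 and Rfx3 lines, Asphd2 near 0.71 and 0.74, and the bars of Plekha2 and Gprc5c are at different heights in the 2 lines.

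The 4 genes were chosen by small p-values in 2 lines, and the order below is 1 way to join these. Of 14086 genes tested in both lines, 1216 were called lower in both and 458 higher in both. Ordered by the larger of their 2 p-values, Plekha2 came 1st, Kcnmb1 2nd, Asphd2 3rd and Gprc5c 5th. Apln, which encodes the peptide ligand apelin, stood 4th, with log2 differences of 1.64 and 1.32 in the Rfx2 and Rfx3 lines, and is not among the 4. The next after Gprc5c was Mboat7, a lysophospholipid acyltransferase, with 0.66 and 0.42. Abcc12, a transporter of the ABC family, followed with -0.88 and -0.82.

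Compared per kilobase of exon, the 4 genes had 1 order of means in all 3 wild-type groups and in Rfx1 knockouts: Plekha2, Asphd2, Gprc5c and then Kcnmb1. In Rfx3 wild types Plekha2 stood at 29.5 ± 3.0 CPM per kb (SD, n = 6), Asphd2 at 9.90 ± 0.56, Gprc5c at 3.11 ± 0.87 and Kcnmb1 at 2.62 ± 0.43. The ranges of Gprc5c and Kcnmb1 overlapped. In Rfx3 knockouts Plekha2 stood at 15.5 ± 1.56 and Asphd2 at 16.7 ± 2.01 CPM per kb (n = 6 each), with overlapping ranges. In Rfx2 knockouts the pair likewise overlapped, at 18.2 ± 0.89 and 18.6 ± 2.03 CPM per kb (n = 6 each), so the order of this pair was not resolved in either group.

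The knockouts were then compared library by library with Foxj1 and with Mcidas, which starts the multiciliated programme. In Rfx3 knockouts 1 to 3 Foxj1 lay 0.06, 0.10 and 0.15 below the wild-type mean on the log2 scale. The wild types spread from 0.11 below to 0.15 above it, so that knockout 3 lay just under the lowest wild type and the other 2 lay within their range. In knockouts 4 to 6 it lay 1.03, 1.02 and 1.19 below. Mcidas was 0.03 above and 0.01 and 0.46 below in the first 3, and 2.20, 2.03 and 2.78 below in the others. The 4 genes were shifted in all 6 of these knockouts, but these samples took part in choosing them, so this is a description.

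For Plekha2 the 6 Rfx3 knockouts lay 1.05, 0.80, 1.18, 0.92, 0.81 and 0.83 below the wild-type mean on the log2 scale. Asphd2 lay 0.80, 0.68, 1.05, 0.67, 0.66 and 0.62 above it. In neither gene were the first 3 the less shifted ones. Kcnmb1 lay 1.47, 1.89, 2.02, 2.10, 2.79 and 2.46 below, so that the last 3 lay lowest. Gprc5c lay 1.28, 1.26, 1.62, 1.89, 1.60 and 1.97 below, with overlap between the sets.

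In fits of replicates 1 to 3 alone, the log2 differences in the Rfx3 line were -1.06 for Plekha2, -1.86 for Kcnmb1, -1.43 for Gprc5c and 0.80 for Asphd2. Replicates 4 and higher gave -0.83, -2.44, -1.89 and 0.68 in the same order. These samples chose the genes, so the shared direction of the sets is no support for it. In Rfx2 knockouts Foxj1 lay 0.43 to 0.79 below the wild-type mean and Mcidas 1.03 to 1.97 below, in all 6. There Plekha2 lay 0.55 to 0.75 below and Gprc5c 1.72 to 2.37 below. In the Rfx2 line Foxj1 fell (log2 difference -0.62, SE 0.11, adjusted p = 0.000978, and 0.0947 in replicates 1 to 3 alone). The part of a lower share of multiciliated cells in the differences of the 4 genes was not tested, and in bulk samples fewer cells of a type and less RNA per cell cannot be told apart.

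**Figure D3:**
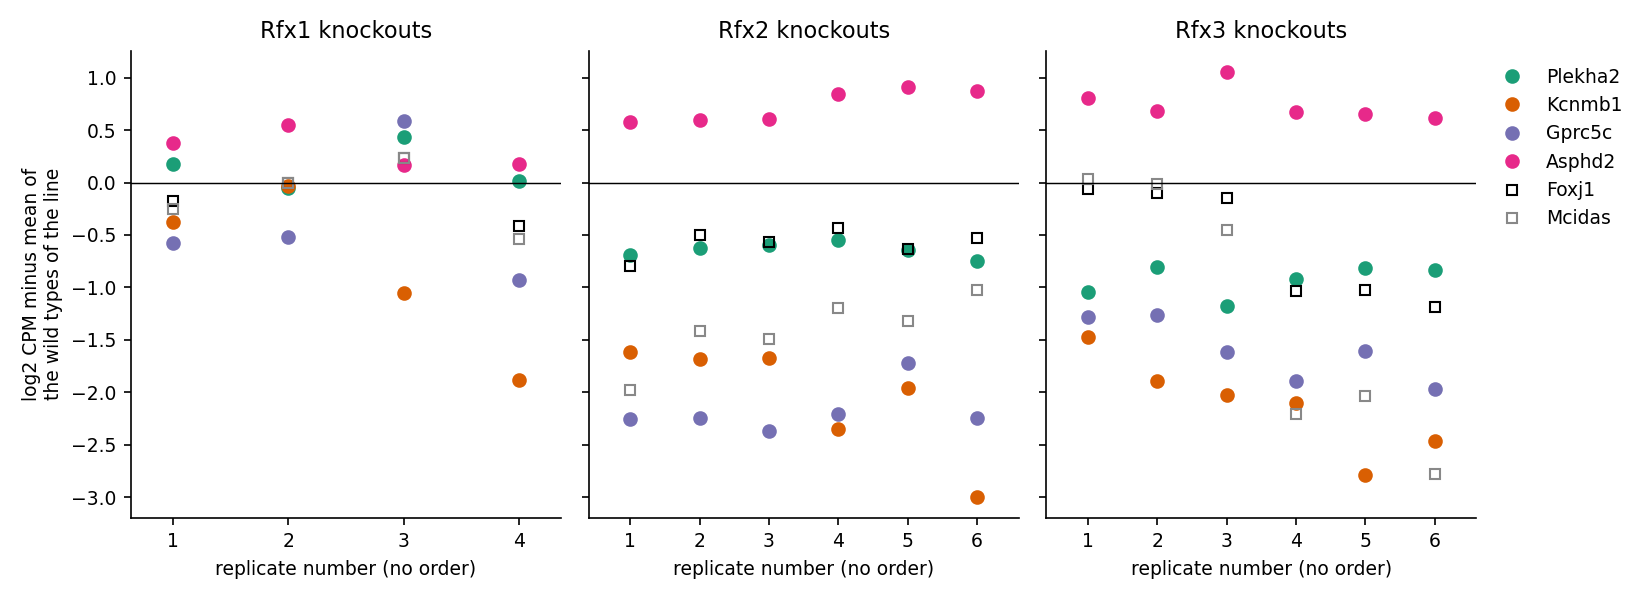
Each knockout library's log2 CPM minus the mean of its line's wild types (vertical axis) for the 4 genes (filled circles) and for Foxj1 and Mcidas (open squares), by replicate number, which carries no order. In Rfx3 knockouts 1 to 3 Foxj1 lies 0.06 to 0.15 below 0, while Kcnmb1 lies 1.47 to 2.02 below and Plekha2 0.80 to 1.18 below. The Rfx2 and Rfx3 knockouts took part in choosing the 4 genes.

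For comparison, the axonemal genes fell broadly in the same 2 lines. Of 30 axonemal genes on a list, 29 were called lower in the Rfx2 line and 28 in the Rfx3 line (18.4% and 12.9% of all genes tested), with median log2 differences of -0.88 and -1.40, against 0.01 and 0.02 over all genes tested. In replicates 1 to 3 alone 0 and 6 were called lower in these lines, and in replicates 4 and higher alone 27 and 30. Over all genes 1050 and 257 were called in replicates 1 to 3 alone, and 3972 and 6041 in replicates 4 and higher alone. The Rfx1 line had 0 of 30 called in edgeR, 2 at an unadjusted p under 0.05 and 1 with DESeq2, with a median of -0.0005. Of 16 regulators and markers of multiciliated cells, 13 were called lower in the Rfx2 line and 6 in the Rfx3 line, where 10 were called without Rfx3_KO replicate 1. In the Rfx3 line replicates 1 to 3 alone gave 3 and replicates 4 and higher alone gave 15. In the Rfx2 line, replicates 1 to 3 alone ended the calls of Foxj1, Mcidas, Ccno, Deup1, Cdc20b, Myb, Trp73, Dynlrb2, Pifo and Enkur. The calls of Tmem212, Ccdc153 and Rarres2 remained. Replicates 4 and higher alone ended only that of Enkur (adjusted p = 0.137).

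The relatives of Kcnmb1 came next. The pore of the BK channel is Kcnma1, and further beta subunits are Kcnmb2, Kcnmb3 and Kcnmb4. Kcnma1 was scarce in all 6 groups, with means from 1.04 to 1.51 CPM. It did not pass the test in the Rfx2 line (log2 difference -0.06, SE 0.20, adjusted p = 0.843) or the Rfx3 line (-0.01, SE 0.33, adjusted p = 0.989). Per kilobase of exon, Rfx3 wild types held 0.062 ± 0.014 CPM per kb (SD, n = 6) of Kcnma1 and 2.62 ± 0.43 of Kcnmb1, so mRNA of the accessory subunit exceeded that of the pore.

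Kcnmb2 fell in both lines where Kcnmb1 was lower, at much lower counts. In Rfx2 knockouts it ran from 0.060 to 0.405 CPM with a median of 0.182, and in their wild types from 0.230 to 1.18 with a median of 0.560. The log2 difference was -1.67 (SE 0.41, adjusted p = 0.00646), with overlap between the groups. In Rfx3 knockouts it ran from 0.157 to 0.601 CPM and in their wild types from 0.719 to 1.48. These groups did not overlap, as for 15.7% of all genes tested in that line. The log2 difference there was -1.65 (SE 0.33, adjusted p = 0.00596). These libraries held 2 to 52 reads of Kcnmb2. In replicates 1 to 3 alone neither call remained (adjusted p = 0.0599 and 0.176), nor in the Rfx2 line with replicates 4 and higher (0.126). The Rfx1 knockouts differed by -0.17 (SE 0.43, adjusted p = 0.9998).

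Kcnmb4 had means from 0.905 to 1.83 CPM over the 6 groups and was not called in the Rfx2 (0.29, adjusted p = 0.488) or the Rfx3 line (-0.01, adjusted p = 0.983). Kcnmb3 and the gamma subunits Lrrc26 and Lrrc52 were too low to be tested in any line. The gamma subunits Lrrc38 and Lrrc55 were tested only in the Rfx2 line and were not called (log2 0.28 and -0.08).

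Of the small and intermediate conductance calcium-activated channels, Kcnn4 fell from 5.07 ± 1.0 (SD, n = 6) to 1.89 ± 0.65 CPM (n = 6) in Rfx3 knockouts (log2 -1.44, adjusted p = 0.00202). Kcnn3 fell from 123.4 ± 10.6 to 79.5 ± 21.3 CPM there (n = 6 each, -0.65, adjusted p = 0.0171, and 0.361 in replicates 1 to 3 alone). In the Rfx2 line Kcnn3 differed by 0.01 (adjusted p = 0.946), and Kcnn4 by -0.53 (adjusted p = 0.0679, and 0.0325 with the replicate number as a block). Kcnn2 fell by 0.41 on the log2 scale in the Rfx2 line (adjusted p = 0.0318), a call that ended in 5 of 14 fits that left out 1 library, and differed by 0.29 in the Rfx3 line (adjusted p = 0.252). Kcnn1 was not called. Of the 12 genes on this list, 9 were tested in the Rfx2 line with 2 lower, and 7 in the Rfx3 line with 3 lower, beside 18.4% and 12.9% of all genes tested. The list's medians were -0.06 and -0.01. In the Rfx1 line 0 of 7 were called, 0 at an unadjusted p under 0.05 and 0 with DESeq2.

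**Figure D4:**
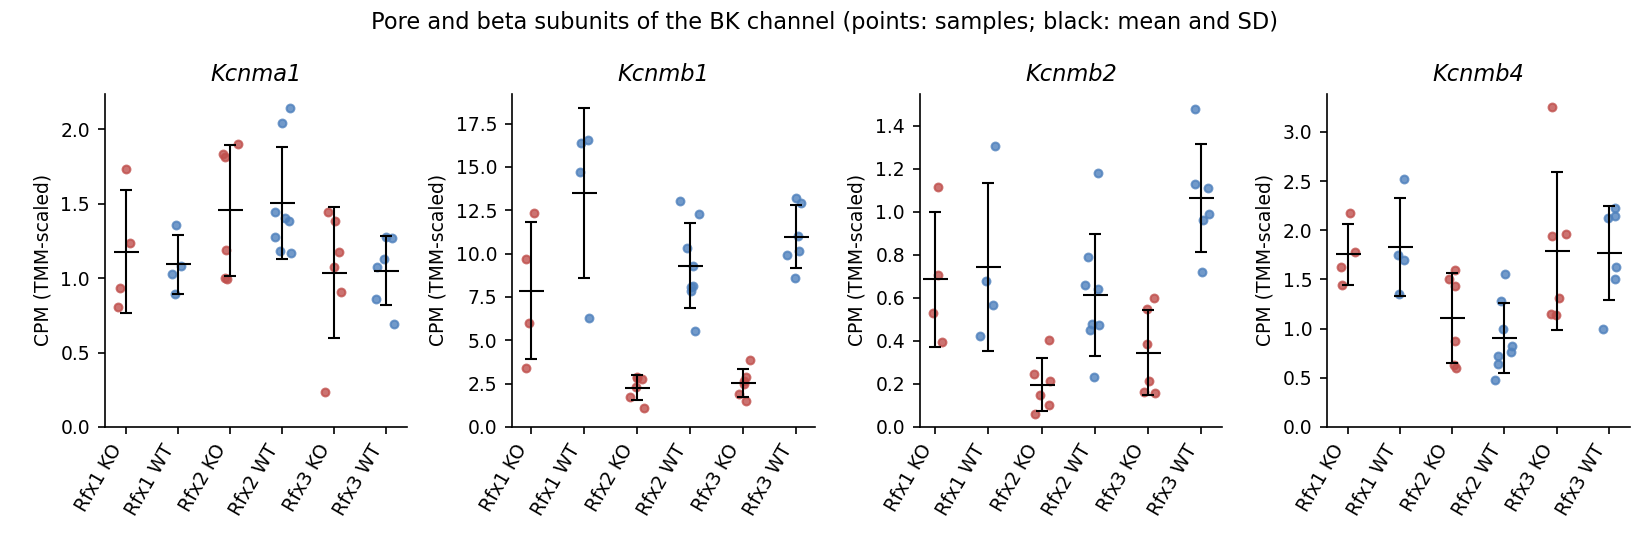
Level in CPM (linear axes from 0, different for each panel) of the BK channel pore Kcnma1 and the beta subunits Kcnmb1, Kcnmb2 and Kcnmb4 in every sample, with black bars for the mean and SD. Kcnmb1 and Kcnmb2 are lower in Rfx2 and Rfx3 knockouts, while Kcnma1 stays near 1.04 to 1.51 CPM on average in all groups.

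Because Kcnmb1 is also a smooth muscle gene, markers of those cells were examined. Acta2, their main actin, was high throughout, at 2027 ± 207 CPM (SD, n = 6) in Rfx2 knockouts against 2280 ± 329 (n = 8), and 2466 ± 459 against 2394 ± 415 in the Rfx3 line (n = 6 each). Acta2, Myh11 and Tagln were not called in either line in the fit without a block. With the replicate number as a block, 5 members were called lower in the Rfx2 line in place of 1: Mylk and, in addition, Acta2 (log2 -0.20, adjusted p = 0.015, against 0.119 without the block), Myh11 (-0.37, 0.0203 against 0.0821), Tagln (-0.20, 0.0289 against 0.177) and Cnn1 (-0.14, 0.0207 against 0.32). Over all genes tested 4204 were called in the Rfx2 line with that block, against 4626 without it. Des, which mature muscle expresses, was at most 0.213 CPM on average. Of 9 tested members of the smooth muscle and pericyte list, Mylk, which phosphorylates myosin light chain, fell in both lines, by 1.25 and 1.23 on the log2 scale. Pdgfrb and Notch3 rose in both, and Cnn1 rose in the Rfx3 line. Over all genes tested 13.9% were called higher and 18.4% lower in the Rfx2 line, and 10.6% and 12.9% in the Rfx3 line. In replicates 1 to 3 alone, Mylk in the Rfx2 line was the single call, where 1050 genes of all were called. Without Rfx3_KO replicate 3 the Rfx3 line had 5 higher in place of 3, while calls over all genes rose from 3374 to 5549. The summed level of the list ran from 3222 to 4039 CPM in Rfx2 knockouts and 3396 to 4919 in their wild types, and from 3387 to 5766 and 2940 to 4645 CPM in the Rfx3 line. The part of these cells in the difference of Kcnmb1 was not tested. The 6 endothelial markers summed to 28.7 to 76.9 CPM over the samples, most of it Kdr, whose group means ran from 32.9 to 60.6 CPM. Cldn5 was at or near 0 in every group and Pecam1 averaged at most 0.183 CPM. Of the 3 tested in the Rfx2 line, the receptor Tek was called lower (log2 difference -0.74, adjusted p = 0.0394, means of 0.311 against 0.516 CPM), a call that ended in 13 of 21 alternatives. Of the 3 tested in the Rfx3 line, 0 were called in edgeR or DESeq2 and 0 had an unadjusted p under 0.05.

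Gprc5c has 3 relatives in the same receptor branch. In Rfx2 wild types Gprc5b stood at 70.8 ± 2.99 CPM per kb (SD, n = 8), against 2.71 ± 0.79 for Gprc5c. From 327.6 ± 13.8 CPM (n = 8) there it fell to 251.3 ± 15.1 (n = 6) in Rfx2 knockouts. The groups did not overlap, as for 10.7% of all genes tested in that line. The log2 difference of Gprc5b there was -0.41 (SE 0.07, adjusted p = 4.97e-05), a call that held in all 21 alternatives. In the Rfx3 line it differed by -0.28 (adjusted p = 0.0643), where Rfx3_KO replicate 3 stood at 237.0 CPM and the other 5 knockouts between 332.7 and 368.8. Gprc5a differed by -0.44 (adjusted p = 0.0508, and 0.0151 with the replicate number as a block) and -0.22 (adjusted p = 0.474). Gprc5d averaged at most 0.388 CPM and was not called. Of 2 relatives tested in the Rfx1 line, 0 were called, 0 passed an unadjusted p of 0.05 and 0 were called by DESeq2.

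The list around Plekha2 held 25 genes that make, remove or bind PI(3,4)P2, or that are related to or bind TAPP adaptors, all of them tested. In the Rfx2 line 5 were called higher and 4 lower, and in the Rfx3 line 2 higher and 4 lower. Over all genes tested 13.9% and 18.4% were called higher and lower in the Rfx2 line and 10.6% and 12.9% in the Rfx3 line, so the counts in this list lay near the background. The median log2 differences were 0.03 and -0.04, close to those of all genes. Without Rfx3_KO replicate 3 the Rfx3 line had 5 higher and 8 lower, and replicates 4 and higher alone gave 6 and 9. Over all genes 5549 and 6041 were called in these settings, against 3374 in the main fit. The Rfx1 line had 0 calls, with 1 gene at an unadjusted p under 0.05 and 1 called by DESeq2.

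Plekha5, a relative with a pleckstrin homology domain, was lower in the same 2 lines as Plekha2. In Rfx2 knockouts it ran from 37.3 to 41.3 CPM and in their wild types from 48.7 to 87.0. The log2 difference was -0.81 (SE 0.13, adjusted p = 0.000234), a call that held in all 21 alternatives. In Rfx3 knockouts it ran from 26.5 to 42.2 CPM and in their wild types from 46.2 to 64.8. The log2 difference was -0.55 (adjusted p = 0.00807), and the call ended in replicates 1 to 3 alone (0.163).

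Plekha1 (TAPP1), the closest relative of Plekha2, rose by 0.31 in the Rfx2 line (adjusted p = 0.0162) and differed by 0.27 in the Rfx3 line (adjusted p = 0.255). Plekha4 rose in both lines, by 0.32 (adjusted p = 0.0372) and 0.50 (adjusted p = 0.00327). The first of these calls ended in 9 of 14 fits without 1 library. Inpp5e, a phosphoinositide 5-phosphatase of the ciliary membrane, fell in both lines, by 0.32 (adjusted p = 0.000435) and 0.38 (adjusted p = 0.0329, a call that ended in 8 of 12 fits without 1 library). In the Rfx3 line Plekha8 fell by 0.42 (adjusted p = 0.00289), and the kinase Akt2 fell by 0.10 in the Rfx2 line (adjusted p = 0.0119, and 0.0671 with the replicate number as a block). In replicates 1 to 3 alone, 2 of the 12 calls among the relatives of the 4 genes remained in the Rfx2 line (Plekha5 and Gprc5b) and 1 of 9 in the Rfx3 line (Kcnn4). In replicates 4 and higher alone 5 of the 12 and 9 of the 9 remained. Over all genes, 4626 calls in the Rfx2 line became 1050 and 3972 in these 2 sets. In the Rfx3 line 3374 became 257 and 6041.

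None of the 3 genes on the list around Asphd2 was called in any line by edgeR or DESeq2, and 0 had an unadjusted p under 0.05. Asph, the aspartate beta-hydroxylase itself, differed by 0.09 (adjusted p = 0.138) in the Rfx2 line and -0.02 (adjusted p = 0.886) in the Rfx3 line. Hif1an, an asparagine hydroxylase that acts on HIF, differed by 0.04 and -0.15. Asphd1 averaged at most 0.366 CPM.

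The genes next to the 4 were also examined. Beside Plekha2, Tacc1 fell by 0.24 in the Rfx2 line (adjusted p = 0.00374, and 0.0737 with all groups in 1 fit). In the Rfx3 line Tacc1 differed by -0.32 (SE 0.13, adjusted p = 0.0978) and was not called. Fgfr1 rose by 0.19 in the Rfx3 line (adjusted p = 0.034), while Tm2d2 was not called. The call of Fgfr1 ended in 8 of 12 fits without 1 library. Beside Asphd2, Hps4 rose by 0.18 in the Rfx2 line (adjusted p = 0.00754) and differed by 0.13 in the Rfx3 line (adjusted p = 0.0706). Sez6l differed by 1.19 and 1.16 but was not called (adjusted p = 0.212 and 0.125), although the Rfx2 value was 0.97 with an adjusted p of 0.0424 with the replicate number as a block. Beside Gprc5c, Btbd17 rose by 0.88 in the Rfx2 line (adjusted p = 0.00194), and Cd300a and Cd300lb were not called. In replicates 1 to 3 alone the adjusted p was 0.132 for Tacc1, 0.39 for Fgfr1, 0.375 for Hps4 and 0.136 for Btbd17, and in replicates 4 and higher alone all 4 were called. Lcp2 beside Kcnmb1 was not called. In these tested neighbours no gene was called in the direction of its member in both lines. The neighbours Htra4, Gabrp, D130052B06Rik, Gpr142 and Gm6588 were too low to be tested in any line.

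The 4 genes were set against each other within groups, by Pearson correlation of log2 CPM over 34 samples after each group's mean was removed. These values share libraries and scaling and are given without a test. Plekha2 and Gprc5c varied together, with r = 0.70 (Spearman 0.62), and 0.56 without the 2 samples farthest from the median of Plekha2. Within lines r was 0.88 (Rfx1, n = 8), 0.75 (Rfx2, n = 14) and 0.43 (Rfx3, n = 12). Plekha2 and Asphd2 varied oppositely, with r = -0.61 (Spearman -0.49), and from -0.56 to -0.68 within the lines. Kcnmb1 had no such constant relation with Plekha2: r was -0.0005 over all samples, -0.45 in the Rfx1 line, 0.59 in the Rfx2 line and -0.06 in the Rfx3 line. Kcnmb1 and Asphd2 went from 0.89 in the Rfx1 line to -0.76 in the Rfx2 line. Gprc5c followed Foxj1 with r = 0.61 (Spearman 0.66), and from 0.58 to 0.86 within the lines. For Plekha2 and Foxj1 r was 0.15, from -0.34 in the Rfx3 line to 0.66 in the Rfx1 line. For Kcnmb1 and Foxj1 r was 0.35, from 0.04 in the Rfx1 line to 0.76 in the Rfx3 line. For Asphd2 and Foxj1 r was 0.13, from -0.18 in the Rfx2 line to 0.55 in the Rfx3 line. With Mcidas r was 0.46 for Gprc5c, 0.30 for Kcnmb1, 0.19 for Asphd2 and 0.02 for Plekha2.

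**Figure D5:**
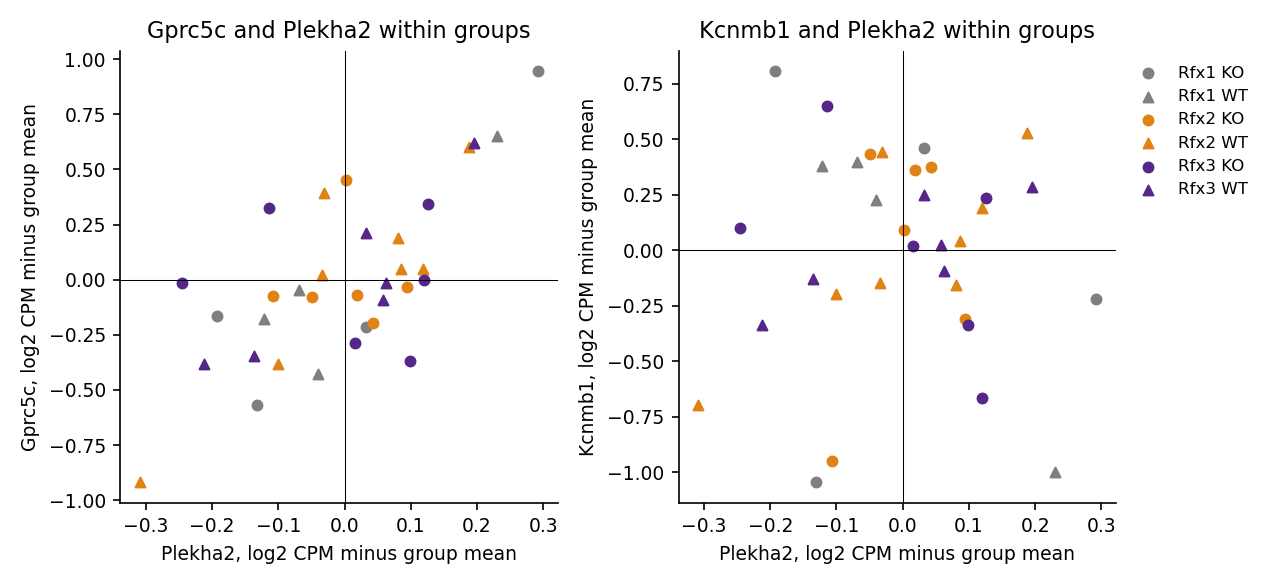
Log2 CPM minus the group mean of Gprc5c (left) and Kcnmb1 (right) against that of Plekha2 in all 34 samples, with circles for knockouts and triangles for wild types. Gprc5c rises with Plekha2 (r = 0.70), while the points of Kcnmb1 show no shared slope (r = -0.0005).

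The genes most like each of the 4 were named by the same correlation over 34 samples among 12260 genes. With group means removed, Plekha2 was most like St6gal1 (0.80), a sialyltransferase, Cd274 (0.77), which encodes PD-L1, and Ppp1r15b (0.76). Kcnmb1 was most like Camk2n2 (0.77), Jag2 (0.75), a Notch ligand, and Ankrd40 (0.75). Gprc5c was most like Ivns1abp (0.87), Cdhr4 (0.87) and Jph4 (0.86). Asphd2 was most like Mamdc4 (0.79), Gprasp2 (0.78) and Klhdc8b (0.78).

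With the differences between groups left in, the leading genes were others, and these largely restate the choice by the same contrasts. Plekha2 was then most like Arfgef3 (0.91), Ivns1abp (0.91) and Fam13a (0.90), and Kcnmb1 most like Ncs1 (0.91), Casq2 (0.90) and Ccdc33 (0.90). Gprc5c was most like Ivns1abp (0.96), Fam166b (0.96) and Ccdc33 (0.95), and Asphd2 most like Mboat7 (0.91), Ndrg3 (0.84) and Pdgfc (0.83). Ivns1abp led the list of Gprc5c both with and without the group means.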

How the data were processed

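RNA was sequenced in 34 samples, and the authors deposited raw counts of reads per Ensembl gene without normalization. The submitters' processing notes name CASAVA 1.8.2, STAR 2.4, featureCounts 1.4.6 and GRCm38. The sources used here do not give settings, use of strand or annotation release. Of 21647 genes, 21583 matched GENCODE M21.

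Each line was fitted alone in edgeR 4.0.16 (R 4.3.3): low counts were dropped by filterByExpr (min.count 10, min.total.count 15), with TMM, the two-sided quasi-likelihood F test and Benjamini-Hochberg adjustment over all genes of the fit, with calls at 0.05. Knockout was compared with wild type, and log2 differences are knockout minus wild type. The SE was derived from the F value. Levels are CPM, and log2 CPM has a prior count of 2. Fits were tested on simulated data.

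Genes, lists and tests were chosen with earlier results of these data known. Named genes are the 4, relatives on written lists (all of lists of up to 12 genes, otherwise called genes with the 3 smallest p per line), neighbours, and the 3 most similar genes. Plekha1, Kcnmb1's smooth muscle markers and axonemal counts were added for comparison. Alternatives were DESeq2 1.42.0, total counts, no filter, all groups in 1 fit, a replicate block, subsets of replicates, leaving out each library and a prior count of 0.5. Running them for listed genes and neighbours was decided after seeing the data.

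Among 85 replicate pairs none agreed within counting noise (chi-square per degree of freedom from 4.11 to 212). The labels do not say that replicate numbers pair samples. Deviations of same-numbered knockouts and wild types correlated from 0.16 to 0.61 in the Rfx2 line, every pair above 0.1. The numbers may therefore pair those samples. Yet Rfx2 knockouts 3, 5 and 6 correlated best with wild types 2, 7 and 5. The same-number correlations ranged from -0.09 to 0.45 in the Rfx1 line and from -0.37 to 0.20 in the Rfx3 line. The main fits of every line used no block, so any pairing was left out of them. With the replicate number as a block 4204 genes were called in the Rfx2 line, against 4626 without it.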

Additional observations from a re-analysis of the deposited data

Results flagged for a closer look

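Gprc5c stood at 4.08 CPM in Rfx2_KO replicate 5, while the other 5 Rfx2 knockouts lay between 2.58 and 2.90. The gap to the nearest sample was 0.788 of the group's range, above Dixon's 95% critical value for 6 samples. This was 1 of 24 combinations of gene and group examined, and chance flags about 1 in 20. That library still lay below every Rfx2 wild type, the lowest of which stood at 7.17 CPM.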

How the results depend on the processing

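In the Rfx1 line the differences of Plekha2, Kcnmb1, Gprc5c and Asphd2 kept their direction in the 13 alternatives run, and none was called in any. The 21 alternatives in the Rfx2 line and 19 in the Rfx3 line also kept the directions of the 4 genes, which were chosen on these samples, so this is no sign of stability. In the Rfx1 line the differences ran from 0.04 to 0.24 for Plekha2, -1.08 to -0.52 for Kcnmb1, -0.74 to -0.02 for Gprc5c and 0.25 to 0.37 for Asphd2. With the replicate number as a block the Rfx1 values were 0.14, -0.83, -0.35 and 0.32, and the block changed no call of the 4 genes there. In the Rfx2 line the block changed the calls of Acta2, Myh11, Tagln, Cnn1, Tek, Kcnn4, Gprc5a, Akt2 and Sez6l and of no other gene named from a list or as a neighbour. The number of genes called in the Rfx1 line was 1, against 9 with DESeq2, 2 with no filter, 6 with all groups in 1 fit and 0 with the replicate block. It ran from 0 to 9 without a library, with 9 without Rfx1_KO replicate 2 and 3 without Rfx1_WT replicate 1. In the Rfx2 line 4626 genes were called, against 1050 in replicates 1 to 3 only, 3972 in replicates 4 and higher, and 3974 to 5270 without a library. In the Rfx3 line 3374 were called, against 5367 with all groups in 1 fit, 2205 with the replicate block, 257 in replicates 1 to 3 only and 6041 in replicates 4 and higher. Without a library the Rfx3 count ran from 2139 (without Rfx3_WT replicate 3) to 5549 (without Rfx3_KO replicate 3). The cause of these shifts was not tested. The alternatives for genes of the lists and neighbours were chosen after seeing the data. Of 12 calls among relatives of the 4 genes in the Rfx2 line, 2 held in all settings, and of 9 in the Rfx3 line 1 did. Counts of a few reads limit Kcnmb2, Asphd1 and Gprc5d.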
